A study of Homo sapiens with 4 samples.

Results

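Autophagy genes that have been linked to p53 were followed in NGP cells after release of p53 by a small molecule. The set was chosen by name and holds 10 genes, of which 9 were measured among the 25693 human genes of the count table: DRAM2, ULK1, ULK2, ATG4A, ATG7, ATG10, UVRAG, VMP1 and SQSTM1. DRAM1, the lysosomal membrane protein that is the best known autophagy target of p53, was not analysed here. NGP is an established human neuroblastoma line with amplified MYCN. All cells had been starved of serum to synchronise the cell cycle and then received, for 24 h, either Nutlin-3, which keeps MDM2 off p53, or its solvent ethanol. Single cells were captured on the ddSeq droplet device and their polyadenylated RNA was read from the 3′ end. There were 2 libraries per treatment, with ERCC spike-in RNA diluted 1000-fold in one and 10000-fold in the other.

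Autophagy encloses parts of the cytoplasm in a double membrane, the autophagosome, and delivers them to the lysosome for digestion. The ULK kinases start the process, a lipid kinase complex marks the site, membrane is supplied from the endoplasmic reticulum, and a pair of ubiquitin-like reactions attaches ATG8 proteins to the growing membrane, where cargo receptors bind. Chromatin binding and gene induction by p53 have been described for several of these genes in other cells, and p53 is known both to promote and to restrain autophagy depending on the setting.

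The count table names its 500 columns by treatment only, so each treatment is 1 pool of 250 columns and no difference has a replicate check. No test was run and no p-value was computed. The ethanol pool held 1342134 human counts and the Nutlin-3 pool 1301232. A column name is a short stretch of bases before the word for the treatment, and 219 of the 250 stretches of each pool occurred in both. Whether columns that share a stretch hold separate cells was not tested. In each pool 113 columns exceeded 4000 counts and carried 88.7% of the ethanol and 89.2% of the Nutlin-3 counts. The response to the compound was visible in the usual p53 targets: CDKN1A, which encodes p21, a brake on the cell cycle, had 188 counts in Nutlin-3 against 70 in ethanol, and MDM2 had 504 against 315. All 8 markers of adrenergic neuroblastoma that were looked up (among them HAND2, GATA3 and ISL1) were present, with 1675 summed counts after Nutlin-3 against 1643 after ethanol. The 6 mesenchymal markers summed to 409 against 380 counts, of which VIM gave 277 against 276. CD44 (58 against 31) and COL1A1 (47 against 29) were over 1.5-fold higher with Nutlin-3 and FN1 (19 against 37) over 1.5-fold lower, while PRRX1 had 2 counts each and COL3A1 had 6 against 5. The part of these markers in the results was not tested. Of the markers of other cell types EPCAM had 21 and 16 counts, and PTPRC, PECAM1 and HBB were not analysed here.

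Sequences upstream of the gene starts were examined for letters that p53 and other regulators of autophagy genes recognise. RefSeq promoter windows on GRCh38.p14 were matched by symbol for 8 of the 9 measured genes, in 10 windows because SQSTM1 has 3 listed starts. The 250 bases before each start were searched on both strands for 5 motifs: the p53 binding decamer, the E-box CACGTG that TFEB family factors bind, the NRF2-type element TGACNNNGC, the cyclic AMP-type core TGACGT, and the GC box GGGCGG. TGACNNNGC and TGACGT can overlap each other. The p53 decamer was found in 0 of the 10 windows and in 5.57% of all 35116 windows, and CACGTG in 0 of 10 against 6.34%. Both counts of 0 are near what such shares give for 10 windows. TGACNNNGC occurred in the DRAM2 window alone, against 10.9% of all windows. TGACGT occurred in 2 windows, those of VMP1 and ATG10, against 7.10%, and GGGCGG in 6 windows against 42.6%. These are counts of letters in short windows, and sites farther away were not searched. Windows of WIPI1, GABARAPL1 and OPTN, discussed below, were searched too, and of these only GABARAPL1 had the p53 decamer, in 1 place. The windows of ULK1, ULK2 and ATG10 are shown because no annotated exon covers them, and that of WIPI1 because this autophagy gene differed most between the pools among those discussed below with over 20 counts in each. For WIPI1 the 17 bases next to the start, which an exon covers, are left out. Capitals mark GGGCGG or its reverse complement CCGCCC, and all read 5′ to 3′ on the strand of the gene.
ULK1, chr12:131894372-131894621, plus strand: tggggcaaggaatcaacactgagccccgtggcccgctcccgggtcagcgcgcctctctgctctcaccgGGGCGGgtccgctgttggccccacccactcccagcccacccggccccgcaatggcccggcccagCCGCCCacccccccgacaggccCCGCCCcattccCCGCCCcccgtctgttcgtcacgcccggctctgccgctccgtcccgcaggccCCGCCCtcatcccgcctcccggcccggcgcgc
ULK2, chr17:19867937-19868186, minus strand: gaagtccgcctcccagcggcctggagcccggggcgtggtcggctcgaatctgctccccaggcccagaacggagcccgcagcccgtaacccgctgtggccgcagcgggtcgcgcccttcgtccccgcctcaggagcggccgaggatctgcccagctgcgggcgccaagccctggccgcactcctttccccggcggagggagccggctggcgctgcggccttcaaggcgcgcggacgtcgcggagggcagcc
ATG10, chr5:81971773-81972022, plus strand: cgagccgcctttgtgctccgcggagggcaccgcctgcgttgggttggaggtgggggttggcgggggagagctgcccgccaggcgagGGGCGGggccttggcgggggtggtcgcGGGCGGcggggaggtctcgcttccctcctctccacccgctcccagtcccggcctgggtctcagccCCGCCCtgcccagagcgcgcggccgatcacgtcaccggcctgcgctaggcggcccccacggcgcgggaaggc
WIPI1, chr17:68457514-68457746, minus strand: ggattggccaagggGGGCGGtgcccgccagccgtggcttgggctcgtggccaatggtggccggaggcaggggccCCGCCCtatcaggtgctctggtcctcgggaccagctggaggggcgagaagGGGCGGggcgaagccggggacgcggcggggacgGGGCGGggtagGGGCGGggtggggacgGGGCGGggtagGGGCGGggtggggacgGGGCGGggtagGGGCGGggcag
The related kinases ULK1 and ULK2 differ in these letters, with 5 GC boxes before ULK1 and 0 before ULK2. ATG10 has 3 and WIPI1 has 9, of which 8 lie on the printed strand. The 4 stretches are rich in G and C, at 78% for ULK1, 76% for ULK2, 77.6% for ATG10 and 79.0% for WIPI1.

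The 9 genes were close to equal in the Nutlin-3 and ethanol pools. Their counts summed to 803 in Nutlin-3 and 801 in ethanol, of which only 10 and 9 lay in columns whose name occurred in a single treatment. The log2 ratios of Nutlin-3 to ethanol, called log2 fold change in the plots, ran from -0.21 for UVRAG to 0.16 for SQSTM1, with a median of 0.085, beside a median of -0.0011 over the 14830 genes that passed a filter on low counts, which all 9 passed. None (0 of 9) was 1.5-fold higher or lower in Nutlin-3, whereas 7.81% of the genes that passed were at least 1.5-fold higher and 5.85% at least 1.5-fold lower. For genes averaging 50 CPM or more (counts scaled to a common library total), as 7 of the 9 did, these background shares were 0.622% and 0.384%. A count of 0 is thus near what the background gives for 9 genes. By sign 6 were higher in Nutlin-3 and 3 lower, against 49.7% higher and 50.3% lower over all genes that passed. The background was 47.2% higher and 52.8% lower for genes averaging 50 CPM or more, and 53.4% higher and 46.6% lower under 50 CPM. With DESeq2 size factors the split was 7 and 2, with ATG10 at 0.00065. With ERCC counts as the library size all 9 were lower, from -0.68 for UVRAG to -0.31 for SQSTM1, since that scaling moved the median of all genes to -0.47. The spike-ins took 0.307% of the Nutlin-3 counts against 0.222% of the ethanol counts, and each pool joins 2 dilutions in unknown proportion.

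**Figure D1:**
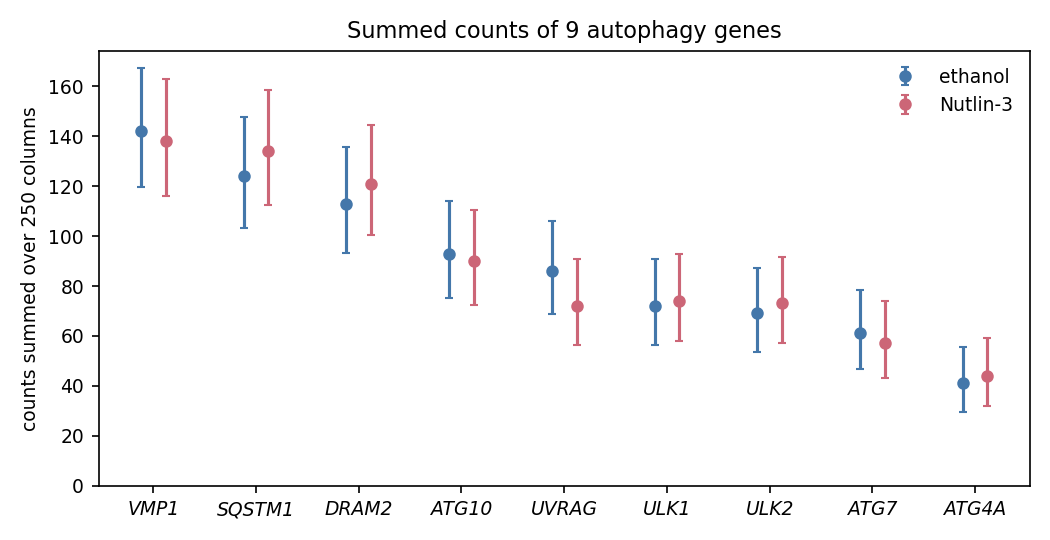
Counts of the 9 genes, summed over the 250 columns of each treatment, with exact Poisson 95% intervals that cover counting error only. The blue ethanol and red Nutlin-3 points lie within each other's interval for every gene, from VMP1 with 142 and 138 counts down to ATG4A with 41 and 44.

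ULK1 and ULK2 encode the serine/threonine kinases that open autophagosome formation when nutrients are short. ULK1 (ENSG00000177169, chromosome 12, 131894651 to 131923167 in GRCh38) had 74 counts in Nutlin-3 (exact Poisson 95% interval 58.1 to 92.9) and 72 in ethanol (56.3 to 90.7). Its log2 ratio was 0.085, with a 95% counting interval of -0.40 to 0.57. ULK2 (ENSG00000083290, chromosome 17, 19770829 to 19867936) had 73 counts (57.2 to 91.8) and 69 (53.7 to 87.3), a log2 ratio of 0.13 (-0.37 to 0.62). The count intervals of the 2 treatments overlapped for each kinase. Among the columns above 4000 counts, 45 of 113 lacked ULK1 in either treatment and 48 of 113 lacked ULK2 in either treatment, so the kinases were seen equally often in both pools.

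UVRAG encodes a Beclin 1 partner in the lipid kinase complex that acts on endosomes and on the maturation of autophagosomes. It had the lowest value of the set. UVRAG (ENSG00000198382, chromosome 11, 75815167 to 76143195) reached 72 counts (56.3 to 90.7) with Nutlin-3 against 86 (68.8 to 106) with ethanol, so its log2 ratio was -0.21 (-0.68 to 0.26). The intervals overlapped. In the columns above 4000 counts it was absent from 42 of 113 Nutlin-3 columns against 32 of 113 ethanol columns, and no column held more than 1 count. The smaller columns gave 1 count in Nutlin-3 and 5 in ethanol.

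VMP1 encodes a membrane protein of the endoplasmic reticulum that is needed for autophagosome formation, and its gene hosts the microRNA MIR21. It had the highest count of the set and the second smallest difference. VMP1 (ENSG00000062716, chromosome 17, 59707192 to 59842255) reached 138 counts (116 to 163) with Nutlin-3 against 142 (120 to 167) with ethanol, so its log2 ratio was 0.0050 (-0.34 to 0.35). The intervals overlapped almost fully. Of the columns above 4000 counts, 111 of 113 in Nutlin-3 and all 113 in ethanol held VMP1.

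ATG7, ATG10 and ATG4A serve the ubiquitin-like conjugation reactions. ATG7 is the activating enzyme of both reactions, ATG10 the enzyme that joins ATG12 to ATG5, and ATG4A a protease that trims ATG8 proteins and releases them from membranes. ATG7 (ENSG00000197548, chromosome 3, 11272309 to 11557665) reached 57 counts (43.2 to 73.9) with Nutlin-3 against 61 (46.7 to 78.4) with ethanol, so its log2 ratio was -0.051 (-0.60 to 0.49). ATG10 (ENSG00000152348, chromosome 5, 81972025 to 82276857) had 90 (72.4 to 111) and 93 (75.1 to 114), a log2 ratio of -0.0010 (-0.44 to 0.43). ATG4A (ENSG00000101844, chromosome X, 108091668 to 108154671) was the least counted, with 44 (32.0 to 59.1) and 41 (29.4 to 55.6) and a log2 ratio of 0.15 (-0.50 to 0.80). For these 3 enzymes the treatments differed by at most 4 counts and the intervals overlapped. Exons of ATG10 share 374 bases with RPS23, a ribosomal protein gene on the opposite strand that held 502 counts with Nutlin-3 against 491 without. Whether the authors' counting used strand is not given in the sources used here, so the part of RPS23 reads in the ATG10 count was not tested.

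SQSTM1 encodes p62, a receptor that carries ubiquitinated cargo into autophagosomes and binds KEAP1, the inhibitor of the antioxidant factor NRF2. It had the highest log2 ratio of the set. SQSTM1 (ENSG00000161011, chromosome 5, 179806398 to 179838078) reached 134 counts (112 to 159) with Nutlin-3 against 124 (103 to 148) with ethanol, so its log2 ratio was 0.16 (-0.21 to 0.52). Most of the difference of 10 counts lay in the smaller columns, with 18 in Nutlin-3 against 10 in ethanol, a log2 ratio of 0.95 whose counting interval of -0.21 to 2.26 includes 0. In the columns above 4000 counts the sums were 116 and 114, a log2 ratio of 0.065 (-0.32 to 0.45). In 3 of those Nutlin-3 columns SQSTM1 reached 3 or 4 counts, while no ethanol column held more than 2. Its exons share 1582 bases with MRNIP on the opposite strand, which had 95 counts in each treatment, and this overlap was not tested either. DRAM2 (with CEPT1), ATG7 (with VGLL4), VMP1 (with PTRH2) and UVRAG (with UVRAG-DT) also share exon bases with a gene on the opposite strand, whereas ULK1, ULK2 and ATG4A share none. The VGLL4 counts were 106 in Nutlin-3 against 124 in ethanol.

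DRAM2 encodes a lysosomal membrane protein related to DRAM1. DRAM2 (ENSG00000156171, chromosome 1, 111117333 to 111140216) reached 121 counts (100 to 145) with Nutlin-3 against 113 (93.1 to 136) with ethanol, so its log2 ratio was 0.14 (-0.24 to 0.53). The intervals overlapped. It was absent from 7 of the 113 Nutlin-3 and 15 of the 113 ethanol columns above 4000 counts.

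For all 9 genes the counting interval of the log2 ratio included 0. The bounds ran from -0.68 for UVRAG to 0.80 for ATG4A. By comparison the log2 ratio of CDKN1A was 1.46 (1.07 to 1.89) and that of MDM2 was 0.72 (0.52 to 0.93). The intervals treat counts as independent, which the values per column described below go against, and hold no variation between cultures. They are therefore no limit on the size of a change. The share of all genes whose interval included 0 was not computed, here or below. Counts of such intervals are therefore no result about the set.

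**Figure D2:**
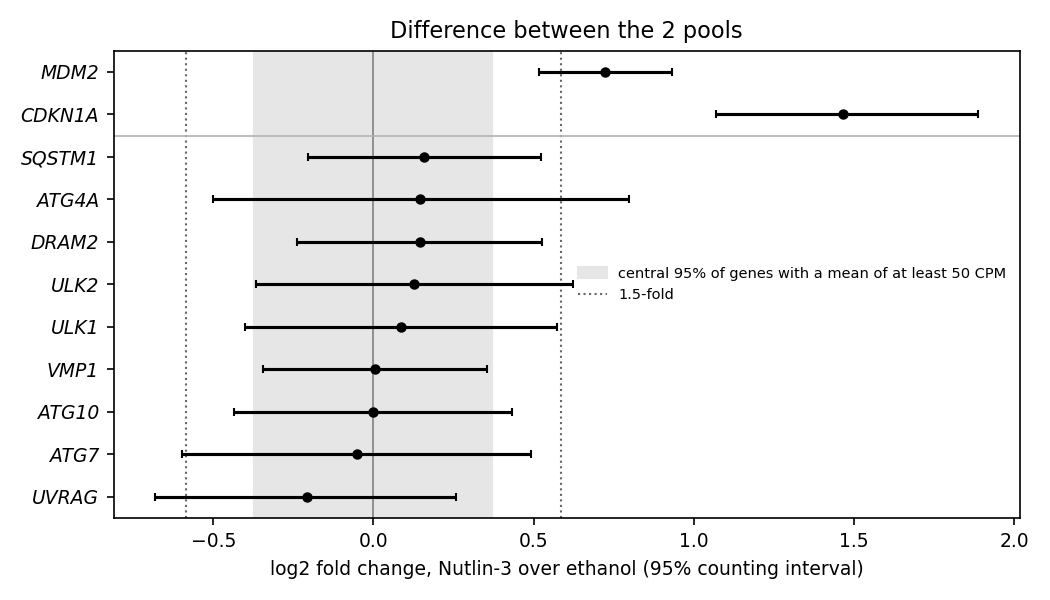
Log2 ratio (Nutlin-3 to ethanol) for the 9 genes and, above the line, for CDKN1A and MDM2, with 95% counting intervals. The grey band holds the central 95% of genes averaging 50 CPM or more (-0.37 to 0.37) and dotted lines mark 1.5-fold. All 9 points lie in the band and the 2 p53 targets lie outside it.

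The genes were almost always counted once or not at all in a column. In the columns above 4000 counts, 673 of 704 values above 0 in Nutlin-3 (95.6%) and 697 of 721 in ethanol (96.7%) were exactly 1. Over all genes in the same columns the shares were 92.5% and 91.8%, so single counts were common to the whole table. The variance of a gene over these columns, divided by its mean, lay between 0.080 and 0.65 for the 9 genes, where independent random counts would give about 1. VMP1 held exactly 1 count in 100 of 113 Nutlin-3 and 101 of 113 ethanol columns, so its sums, 122 and 125, are close to the number of columns. The same ratio was 0.44 in ethanol and 0.23 in Nutlin-3 for CDKN1A, and 0.61 and 0.93 for MDM2. CDKN1A was absent from 47 of 113 ethanol columns and from 0 of 113 in Nutlin-3, where 88 columns held 1 count, 20 held 2 and 5 held 3 or more. MDM2 reached 3 or more counts in 75 Nutlin-3 and 32 ethanol columns. In the columns above 4000 counts the log2 ratio of CDKN1A was 1.13 (0.71 to 1.57). In the smaller columns it was 3.84 (2.41 to 6.38), from 45 against 3 counts. For MDM2 the values were 0.77 (0.53 to 1.02) and 0.66 (0.26 to 1.08). Whether the counting per column limits the size of a difference for VMP1, SQSTM1 and DRAM2, which were seen in nearly all of these columns, was not tested.

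**Figure D3:**
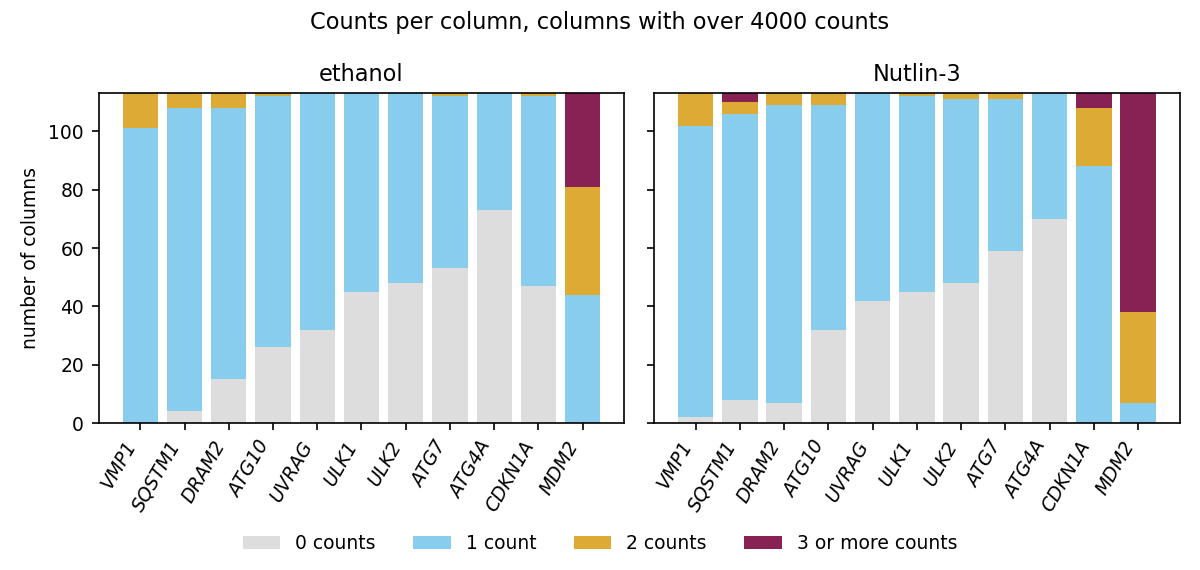
Number of the 113 columns above 4000 counts that held 0, 1, 2 or at least 3 counts of each gene, in ethanol (left) and Nutlin-3 (right). The 9 autophagy genes show almost only 0 or 1 in either treatment. DRAM2 was missing from 15 ethanol and 7 Nutlin-3 columns and UVRAG from 32 and 42, while the grey part of CDKN1A goes from 47 columns to 0 and MDM2 shifts to 3 or more.

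The set was seen together in the deeper columns and hardly at all in the others. A column above 4000 counts held a median of 6 of the 9 genes in Nutlin-3 (range 2 to 9) and 7 in ethanol (3 to 9). The columns of at most 4000 counts had a median of 0 in either treatment, and 93 of 137 Nutlin-3 columns and 96 of 137 ethanol columns held none. Columns above the limit thus gave 92.0% of the counts of the set in Nutlin-3 and 93.0% in ethanol. Within them alone the 9 log2 ratios ran from -0.15 to 0.14, and every counting interval included 0. The smaller columns, with 64 and 56 counts for all 9 genes together, held at most 18 counts of any of them in either treatment. There the ratios ran from -1.74 for UVRAG to 1.72 for ATG7. Every interval included 0, but with so few counts they were wide, such as -6.16 to 6.43 for ATG4A, and allow no statement.

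To compare columns at one depth, each was thinned at random to 700 counts, which left 187 Nutlin-3 and 194 ethanol columns and dropped 63 and 56. At least 1 of the 9 genes was then seen in 34.2% of Nutlin-3 columns (exact binomial interval 27.5 to 41.5) and 29.4% of ethanol columns (23.1 to 36.3), and the intervals overlapped. Columns of 1 pool are not replicates of a treatment. The intervals hold no variation between cultures, so their overlap is no test of the treatment. Per gene the share ran from 2.14% for ULK2 (4 columns, 0.59 to 5.39) to 8.56% for VMP1 (16 columns, 4.97 to 13.5) in Nutlin-3. In ethanol it ran from 1.55% for ATG10 (3 columns, 0.32 to 4.45) to 5.67% for VMP1, SQSTM1 and UVRAG (11 columns each, 2.86 to 9.92). These shares rest on few columns of 1 random draw. At 350 counts the lowest in Nutlin-3 was ATG4A with 0.43%, so they give no firm order. Without thinning, at median totals of 2020.5 and 2294 counts, at least 1 gene was seen in 62.8% of the Nutlin-3 and 61.6% of the ethanol columns. No other cell type was in the samples that could serve as a background for free RNA, whose contribution was not measured.

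Levels of different genes were compared after division by the merged exon length of the GENCODE 29 gene models. In ethanol DRAM2 had the highest level per length, 26.8 CPM per kilobase, followed by VMP1 with 15.3, ATG10 with 12.7 and SQSTM1 with 12.1. ATG4A (10.4) and UVRAG (10.1) came next. ULK1 (7.05), ULK2 (5.22) and ATG7 (5.14) were lowest. In Nutlin-3 the first 2 genes and the last 3 kept their order, SQSTM1 (13.5) stood before ATG10 (12.7), and UVRAG had 8.72. In either treatment the Poisson intervals of DRAM2 and VMP1, divided by length in the same way, did not overlap, while those of all later neighbours in the order did. The kit reads the 3′ end, and how far exon length is the right divisor for it was not tested. DRAM2 has 3138 exon bases and VMP1 6916, and both held exactly 1 count in most columns above 4000 counts. How far the order follows exon length in place of expression was not tested. The Poisson intervals treat counts as independent, which those values per column go against. By 4 values (each treatment in columns above and up to 4000 counts), the genes most like SQSTM1 were THEM6 and SMARCA1, at Euclidean distances of 0.044 and 0.045 in log2 CPM among 8843 candidates.

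The other genes of the pathway were taken from a list of 64 by step, of which 63 were measured and 62 passed the filter. Of these 39 were higher and 23 lower in Nutlin-3, against 49.7% and 50.3% of all genes that passed, with a median log2 ratio of 0.064. Of the 49 averaging 50 CPM or more 30 were higher and 19 lower, against a background of 47.2% and 52.8%. At least 1.5-fold differences were found in 6. Of these 5 were higher (8.06%, against 7.81% of all genes that passed) and 1 was lower (against 5.85%). All 6 had a mean under 50 CPM, where 13 pathway genes lay. The 5 higher genes were 38.5% of those 13, against 18.4% of all 5986 genes with such a mean, of which 13.9% were 1.5-fold lower. The cause of the larger share was not tested. Of the 49 pathway genes averaging 50 CPM or more, 0 differed by 1.5-fold. With ERCC counts as the library size the median of the list became -0.41.

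Among the genes averaging 50 CPM or more, WDR45 and ATG16L1 lay just outside the central 95% of such genes (-0.37 to 0.37) and the other extremes of each step lay inside it. In the initiation complex around the ULK kinases, RB1CC1 had a log2 ratio of 0.18 and ATG101 one of -0.18. Among the PI3-kinase subunits and regulators the extremes were PIK3C3, the catalytic subunit, at 0.21 and PIK3R4 at -0.094. For membrane supply they were WDR45 at 0.39 and WIPI2 at -0.070, a pair of lipid-binding scaffold proteins. The conjugation step had the lowest list median, -0.11, with 2 genes higher and 5 lower. There ATG12, the ubiquitin-like modifier, stood at 0.15, and ATG16L1, which places the conjugate on the membrane, had 68 counts with Nutlin-3 against 93 without, a log2 ratio of -0.40 (-0.88 to 0.061). Of the ATG8 proteins GABARAP was at 0.19 and GABARAPL2 at -0.15, of the cargo receptors TAX1BP1 at 0.16 and FUNDC1 at -0.13, of the fusion genes SNAP29 at 0.18 and VPS39 at -0.18, and of the lysosomal genes ATP6V0D1 at 0.25 and CTSB at -0.16. These single-gene intervals all included 0.

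The larger differences were in less counted genes, named here after their values were seen. WIPI1, a protein that binds the lipid made by the PI3-kinase complex, reached 61 counts (46.7 to 78.4) with Nutlin-3 against 28 (18.6 to 40.5) with ethanol, so its log2 ratio was 1.16 (0.50 to 1.87). It was held by 58 of the 113 larger Nutlin-3 columns and 27 of the 113 in ethanol, with 1 count each. Its exons share 828 bases with ARSG on the opposite strand, which had 33 against 23 counts, and the part of those reads was not tested. OPTN, a cargo receptor for mitochondria and bacteria, had 65 against 38 counts and a log2 ratio of 0.81 (0.22 to 1.44). TFE3, a transcription factor of lysosomal genes, had 66 against 39 counts and 0.80 (0.21 to 1.41), and its relative TFEB had 17 against 7 counts and 1.27 (-0.017 to 2.84). GABARAPL1, a close relative of GABARAP, stood just under 1.5-fold with 65 against 45 counts and 0.57 (0.0061 to 1.16). MAP1LC3B2 had 13 against 4 counts and is a near copy of MAP1LC3B, so reads may be shared between them. The autophagy genes named here lie within the central 95% of genes with a mean under 50 CPM, -1.26 to 1.63, with MAP1LC3B2 at its upper edge. That band also holds genes with far fewer counts, whose ratios scatter more. It is therefore no like comparison for WIPI1, OPTN, TFE3 and GABARAPL1, with means of 33.9, 39.1, 39.9 and 41.7 CPM. Genes of similar level alone were not compared. ERCC scaling lowers every value and bound by 0.47, after which the intervals of OPTN, TFE3, MAP1LC3B2 and GABARAPL1 include 0 as that of TFEB does before it.

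**Figure D4:**
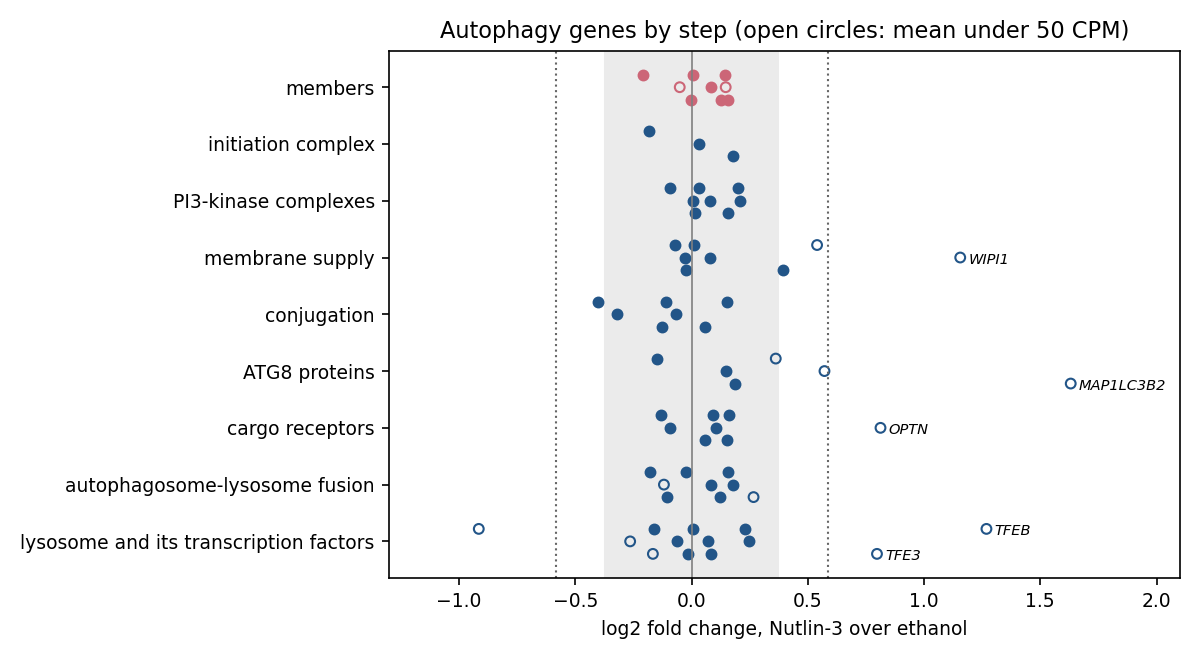
Log2 ratio (Nutlin-3 to ethanol) for the 9 genes (red) and for the 62 other pathway genes by step (blue), with open circles for genes with a mean under 50 CPM. The grey band holds the central 95% of genes averaging 50 CPM or more, and dotted lines mark 1.5-fold. The labelled genes, those at least 1.5-fold higher, run from TFE3 at 0.80 to MAP1LC3B2 at 1.63 and are all open circles.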

How the data were processed

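The deposited table holds raw counts per gene and column, per the values themselves. Libraries were made with the SureCell WTA 3′ kit, per the labels' protocols. Which aligner, molecular tag rule, genome build and cell filter were used is not given in the sources used here. Column names end in a word for treated, taken as Nutlin-3, or untreated, taken as ethanol, and do not show which of the 2 libraries of a treatment a column came from. The 62 ERCC species were left out of sums. Of 25693 genes, 25422 were given a symbol by identifier and 25602 had a position in GENCODE 29 on GRCh38, which need not be the authors' build.

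Counts were summed per treatment and scaled with TMM factors (edgeR 4.0.16, R 4.3.3), and genes were filtered with the edgeR filter at a minimum of 10. The log2 ratio used 0.5 added counts, with an exact binomial 95% interval. Intervals of sums are exact Poisson. All cover counting error only. The fold computation was tested on simulated data. Columns were split at 4000 counts and thinned with a fixed seed, and doublets were not called. Python 3.11.15 with scipy 1.17.1 was used.

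The genes, the pathway list, the split at 4000 counts and the 1.5-fold limit were chosen with earlier results of these data known. All members were named whatever their values, with CDKN1A and MDM2 as a check, and for each step of the pathway the gene with the largest and the smallest value among those averaging 50 CPM or more. The nearest genes of DRAM1 were to be named too, and the third nearest gene of SQSTM1 had no symbol. Some genes counted within the lists are not reported here by name. Alternatives were DESeq2 1.42.0 size factors, total counts, ERCC counts, other added counts, no filter, classes of columns, names found in a single treatment, and columns with a count in place of sums.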

Additional observations from a re-analysis of the deposited data

How the results depend on the processing

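No paired analysis was possible because column names show neither library nor dilution, so a treatment is a single pool. Leaving out each library was therefore not run. Of 78 single-gene log2 ratios under the alternatives, 66 stayed inside the counting interval of the reported value. The other 12 came from ERCC scaling, from columns of at most 4000 counts and from names found in a single treatment, 4 each. The last setting left 10 counts of the set in Nutlin-3 and 9 in ethanol, which allows no statement. DESeq2 factors, total counts and other added counts barely change a ratio, so those values could hardly leave intervals of this width. Columns above 4000 counts reuse most of the same counts. The 66 are thus a weak check. The log2 ratio of the summed counts of the 9 genes was 0.050 (-0.093 to 0.19), was -0.42 with ERCC scaling, which lowers every gene alike, and 0.33 in columns of at most 4000 counts. The median of the pathway list, 0.064, became -0.41 and 0.39 under the same settings, the last with 22 genes left. The share of columns with any of the 9 genes followed depth: for ethanol 61.6% unthinned and 15.8% at 350 counts, for Nutlin-3 62.8% and 17.3%. The cause of the higher values in the smaller columns was not tested.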

Other observations

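SQSTM1 is tied to the antioxidant response, since p62 holds KEAP1 away from NRF2 and is itself an NRF2 target, and 8 genes of that axis were looked up for comparison. Of these, 6 passed the filter, and 1 was higher and 5 were lower in Nutlin-3, against 49.7% higher and 50.3% lower over all genes that passed, with a median log2 ratio of -0.098. GCLM, the regulatory subunit of the enzyme that starts glutathione synthesis, reached 73 counts (57.2 to 91.8) with Nutlin-3 against 109 (89.5 to 131) with ethanol, so its log2 ratio was -0.53 (-0.98 to -0.091), and was named after its value was seen. It was held by 70 of the 113 columns above 4000 counts in Nutlin-3 and 99 of 113 in ethanol. TXNRD1, the thioredoxin reductase, stood at 0.057 with 137 against 136 counts. KEAP1 had 93 against 104 counts and NFE2L2, the gene of NRF2, 110 against 115. HMOX1 and SRXN1 did not pass the filter, with 5 against 2 and 1 against 1 counts. As for the autophagy genes, these values compare 1 pool with 1 pool.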
